A study of Mus musculus with 8 samples.

Results

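The INO80 complex is a chromatin remodeller, and 10 genes of it (Ino80, Ino80b, Ino80c, Ino80d, Ino80e, Actr5, Actr8, Ruvbl1, Ruvbl2 and Mcrs1) were followed across 8 RNA libraries of mouse embryos at the 2-cell stage. The genes were taken by symbol from a table of 55487 genes, and all 10 were found. They were looked at because Ino80e had differed between the groups in an earlier analysis of the same libraries, so its values between the groups are a description and not evidence. The others are subunits of the same complex and were not picked by their own values, but they are read here from the same contrast and are likewise described without a test of their own.

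The study compared 4 libraries labelled as Polq knockdown with 4 control libraries. The knockdown-labelled embryos were injected as zygotes with CasRX and a guide RNA against Polq, and the control embryos, labelled WT, with CasRX and no guide that the labels name. CasRX is a nuclease that is led by a guide to cut RNA, and Polq encodes DNA polymerase theta, which joins broken DNA ends by the alternative pathway. Injection was 20 h after human chorionic gonadotropin (hCG), RNA was taken 10 h later, and each library pooled 5 embryos. Strain and guide sequence were not given in the sources used here. Each value is a pool of whole embryos, in which fewer cells that hold an RNA and less of it per cell cannot be told apart. The study calls the libraries of a group biological replicates.

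The INO80 complex uses ATP to slide and space nucleosomes, and it acts at promoters, at replication forks and at DNA breaks. It is built in modules on the ATPase Ino80: a ring of the AAA+ ATPases Ruvbl1 and Ruvbl2, a module of Actr5 and Ino80c that grips the nucleosome, a module with Actr8 that reads linker DNA, and an N-terminal module of animal-specific subunits that holds Ino80d, Ino80e and Mcrs1. This layout is known from the yeast and human complexes. In the mouse, embryos without Ino80 die early in development.

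The knockdown-labelled libraries were shallower, with 4726159, 8627403, 8100969 and 33650050 counts in replicates 1 to 4, against 33311665 to 43748621 counts in the controls. Polq itself lay at 16.9, 38.9, 29.2 and 41.1 CPM in knockdown-labelled replicates 1 to 4 and at 34.6, 49.7, 40.1 and 32.7 CPM in control replicates 1 to 4, where CPM is counts per 1000000 after TMM scaling, which aligns the bulk of genes between libraries. The groups overlapped in Polq (log2 fold change −0.32, SE 0.34), which is why the group given the guide is called knockdown-labelled. The 6 markers of the 2-cell embryo summed to 271 to 545 CPM in the knockdown-labelled libraries and 224 to 532 CPM in the controls. The 6 oocyte markers summed to 451 to 942 CPM in the knockdown-labelled libraries and 611 to 1028 CPM in the controls. Markers of cumulus and granulosa cells summed to 0.793 to 10.7 CPM in the knockdown-labelled libraries and 0 to 21.5 CPM in the controls. Of the 9, 6 were at 0 in every library, Fshr and Inha among them. Tnfaip6 reached 341 counts in knockdown-labelled replicate 4 and 515 in control replicate 2. Cyp19a1 reached 27 counts in knockdown-labelled replicate 3 and 166 in control replicate 2. Amh had 1 count, in control replicate 1. Markers of sperm were at 0 for 3 of 4 genes in every library. Their sums, all from Prm2, were 0 to 7.34 CPM in the knockdown-labelled libraries and 0 to 7.06 CPM in the controls. The 3 blood markers summed to 5.83 to 9.12 CPM in the knockdown-labelled libraries and 0.0229 to 16.2 CPM in the controls.

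The promoter sequences of 3 members are shown to place the genes that the values turn on: Ino80e, the member whose groups separated, Ruvbl1, the most abundant member, and Ino80, the motor. They are the bases before the RefSeq start in GRCm38.p6, 5′ to 3′ on the strand of the gene. For Ino80 and Ruvbl1 all 250 bases before the start are given, with capitals on GC boxes (GGGCGG) and CCAAT boxes (CCAAT) on either strand. For Ino80e 30 bases are given, with capitals on a YY1-like match (AANATGGCG, here on the opposite strand). The match was chosen because Yy1 is itself a partner of the complex. These 30 bases also lie within an annotated exonic region of the neighbouring gene Hirip3, on the other strand.
Ino80 at chr2:119477688-119477937, minus strand: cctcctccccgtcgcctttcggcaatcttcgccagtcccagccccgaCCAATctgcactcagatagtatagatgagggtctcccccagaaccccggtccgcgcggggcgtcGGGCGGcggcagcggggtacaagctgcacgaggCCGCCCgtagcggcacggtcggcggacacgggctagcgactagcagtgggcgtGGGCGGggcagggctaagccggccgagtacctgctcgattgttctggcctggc
Ruvbl1 at chr6:88465159-88465408, plus strand: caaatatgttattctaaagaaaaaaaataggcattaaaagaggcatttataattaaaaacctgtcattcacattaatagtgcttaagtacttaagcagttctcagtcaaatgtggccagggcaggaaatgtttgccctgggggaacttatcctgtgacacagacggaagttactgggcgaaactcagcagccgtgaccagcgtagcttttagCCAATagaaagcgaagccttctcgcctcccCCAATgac
Ino80e at chr7:126862438-126862467, minus strand: catctcccggCGCCATTTTgcgtcaccagg

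RefSeq windows were at hand for 6 of the 10 members (Ino80, Ino80b, Ino80e, Mcrs1, Ruvbl1 and Ruvbl2), with 2 starts for Ino80e and so 7 windows of 250 bases. A GC box was found in 5 of the 7 windows, against 32.7% of all 32851 windows of that length, and a CCAAT box in 4, against 33.8% of all windows. Ino80 has 3 GC boxes and 1 CCAAT box, and Ruvbl1 has no GC box and 2 CCAAT boxes. The YY1-like letters were in 1 of the 7 windows, that of the upstream Ino80e start, where they end 77 bases before the start, and in 1.12% of all windows. TATAAA was in the Ruvbl1 window, on the opposite strand, and in 12.4% of all windows. The NRF1-like motif was in none of the 7 windows and in 4.98% of all, and CCGGAAGT was in that of Ino80b and in 2.88% of all. No listed motifs overlapped in these windows. A match is a run of letters, and binding was not measured.

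Ino80e, a small subunit of the N-terminal module, was the member with separate groups. It had 56, 27, 59 and 337 counts in knockdown-labelled replicates 1 to 4, against 11.01, 3, 20 and 20.01 counts in control replicates 1 to 4. All 4 knockdown-labelled libraries held more Ino80e counts than any control, and 3 of them were the shallowest of the 8. As levels these were 11.1, 3.28, 6.82 and 10.6 CPM in knockdown-labelled replicates 1 to 4 (mean 7.94 ± 3.65, SD, n = 4). In control replicates 1 to 4 they were 0.336, 0.0945, 0.457 and 0.465 CPM (mean 0.338 ± 0.173, SD, n = 4). The groups did not overlap, and the lowest knockdown-labelled library (replicate 2) lay above the highest control.

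The fitted Ino80e level of the knockdown-labelled group was 23.1 times that of the control group, with a 95% interval from 4.41 to 121 (log2 fold change 4.53, SE 1.07). This value is the one that led to the choice of the genes, and it rests on 3 to 20.01 counts per control library. With all libraries thinned to the smallest total, Ino80e kept 56, 16, 29 and 40 counts in knockdown-labelled replicates 1 to 4, against 2, 0, 4 and 4 counts in control replicates 1 to 4. The log2 fold change was then 3.78. Every thinned control count was under the filter minimum of 10, so Ino80e passed that filter only through the knockdown-labelled group. With 1 library left out at a time the log2 fold change ran from 4.23 to 4.80. Both settings reuse the difference that led to the choice and add no evidence for it.

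Ino80e (ENSMUSG00000030689.15) lies on the minus strand of chromosome 7 from 126850960 to 126862377 (GRCm38), and both of its ends overlap a gene on the other strand. Hirip3, whose protein binds the histone chaperone Hira, shares 150 exonic bases with it at the start, and Doc2a, a calcium sensor of vesicle release, shares 1103 exonic bases at the end. Hirip3 was at 410, 321, 201 and 285 CPM in knockdown-labelled replicates 1 to 4, against 178, 292, 341 and 315 CPM in control replicates 1 to 4. Its groups overlapped (log2 fold change 0.11, SE 0.26), and 3 of the 4 knockdown-labelled libraries lay inside the control range. Doc2a had 0 counts in all 8 libraries. Of the counts of Ino80e and Hirip3 together, Ino80e held 2.64%, 1.01%, 3.29% and 3.57% in knockdown-labelled replicates 1 to 4 and 0.189%, 0.0323%, 0.134% and 0.148% in control replicates 1 to 4. Ino80e carried a fractional count in 2 libraries, 11.01 and 20.01 in control replicates 1 and 4, where Hirip3 had 5816.99 and 13518.99, so that the sum was whole in both and the fractional part of Ino80e was 0.01 counts. Whether whole Ino80e counts hold reads from the strand of its neighbours was not tested, and the strand setting used in counting was not given in the sources used here.

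**Figure D1:**
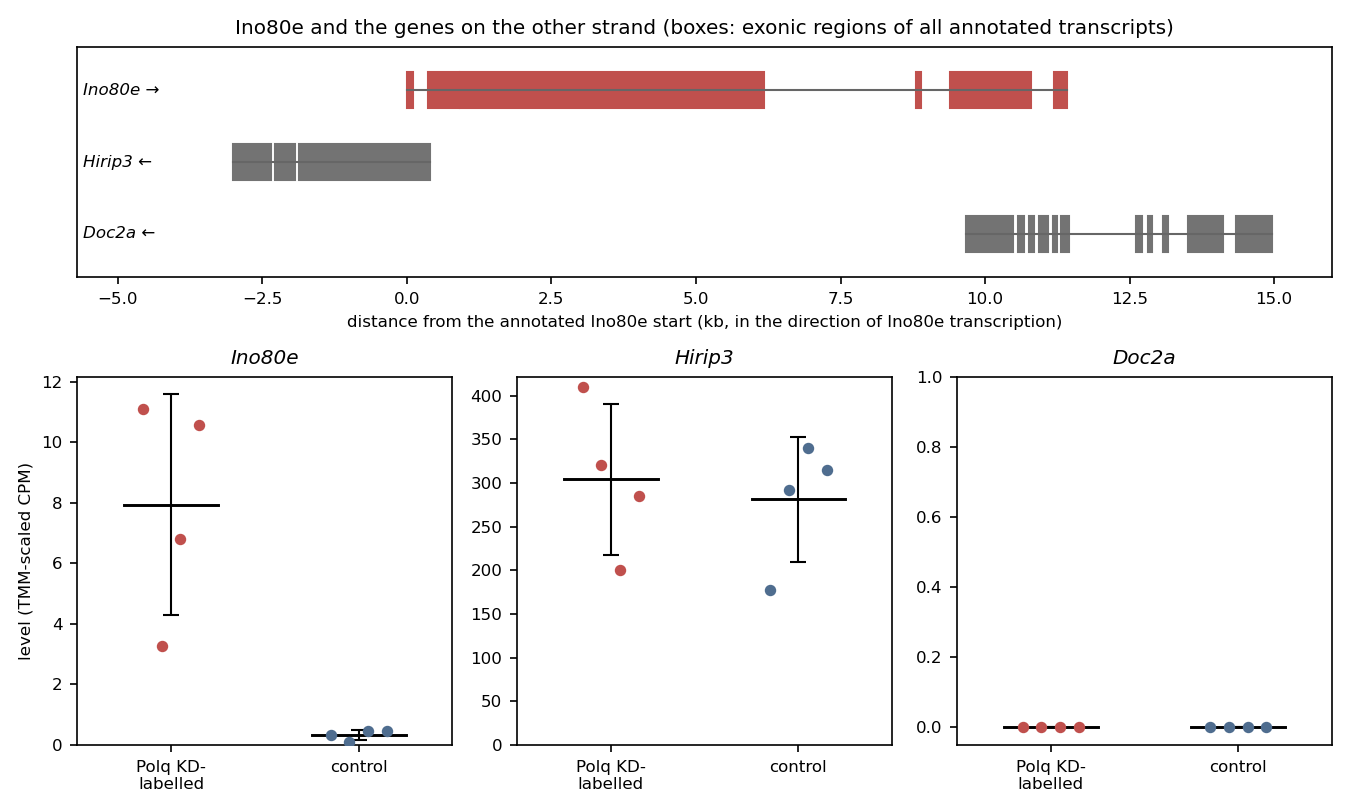
Top, the exonic regions of Ino80e (transcribed to the right), Hirip3 and Doc2a (both transcribed to the left) by distance in kb from the annotated Ino80e start. Bottom, TMM-scaled CPM of the 3 genes in each library (points), with mean and SD of 4: Ino80e is at 3.28 to 11.1 CPM in the knockdown-labelled libraries and at 0.0945 to 0.465 CPM in the controls, while Hirip3 overlaps between the groups and Doc2a is at 0.

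The profiles most like that of Ino80e over the 8 libraries, by the smallest root mean square difference of centred log2 CPM among 7680 genes, were those of Macf1 (1.14), Ift52 (1.18) and Adipor2 (1.21), where the median gene differed by 2.36. Macf1 links microtubules to actin, Ift52 is a part of the intraflagellar transport machinery, and Adipor2 is an adiponectin receptor. Macf1 averaged 7.50 ± 4.37 CPM in knockdown-labelled embryos and 1.30 ± 1.06 CPM in controls (SD, n = 4 each). Ift52 averaged 9.84 ± 7.68 CPM in knockdown-labelled embryos and 1.05 ± 0.710 CPM in controls. Adipor2 averaged 8.60 ± 1.89 CPM in knockdown-labelled embryos and 2.06 ± 1.87 CPM in controls. These genes were picked for a profile like that of Ino80e, so their separate groups are no finding. Of the 8 other members among the 7680 genes, which leave out Actr5 for its low average level, those with the smallest difference from Ino80e were Ino80c (2.037, rank 753) and Ino80 (2.040, rank 771).

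Ino80, the ATPase that drives the complex, was at 14.1, 3.64, 15.5 and 3.32 CPM in knockdown-labelled replicates 1 to 4, against 6.85, 4.22, 5.90 and 2.40 CPM in control replicates 1 to 4. Knockdown-labelled replicates 1 and 3 lay above all controls, and replicates 2 and 4 lay among them. The group means were 9.13 ± 6.55 and 4.84 ± 1.96 CPM for knockdown-labelled and control libraries (SD, n = 4), with a log2 fold change of 0.91 (SE 0.78). With replicate 4 as the only knockdown-labelled library, a setting added after seeing the data, it was −0.54. Ino80 spans 119373042 to 119477687 on the minus strand of chromosome 2 and overlaps no annotated gene.

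Ino80b, which stimulates the ATPase, was uneven in both groups. It was at 0.595, 6.56, 3.24 and 4.61 CPM in knockdown-labelled replicates 1 to 4, against 1.50, 13.3, 2.86 and 1.09 CPM in control replicates 1 to 4. Control replicate 2 lay far above the other controls and above all knockdown-labelled libraries, and knockdown-labelled replicate 1 rests on 3 counts. The log2 fold change was −0.31 (SE 1.13), and it was 1.05 without control replicate 2.

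Ino80c, the partner of Actr5 in the nucleosome-gripping module, was the second most abundant member. It was at 38.3, 31.7, 48.3 and 57.6 CPM in knockdown-labelled replicates 1 to 4, against 41.2, 24.9, 20.7 and 55.6 CPM in control replicates 1 to 4. Only knockdown-labelled replicate 4 lay outside the control range, above it, and the log2 fold change was 0.31 (SE 0.37). Actr5 itself, an actin-related protein, was at 4.96, 3.40, 2.54 and 5.99 in knockdown-labelled replicates 1 to 4, against 4.07, 1.32, 2.86 and 5.03 in control replicates 1 to 4. Its groups overlapped as well (0.35, SE 0.92).

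Actr8, the actin-related protein that reads linker DNA, was uneven in both groups. It was at 3.97, 3.28, 13.5 and 4.76 CPM in knockdown-labelled replicates 1 to 4, against 14.4, 0.473, 10.3 and 5.28 CPM in control replicates 1 to 4. Control replicate 2 held 15 counts in a library of 35007614, and all 4 knockdown-labelled libraries lay inside the control range. The log2 fold change was −0.26 (SE 0.97), and it was 0.25 without control replicate 1 and −0.93 without knockdown-labelled replicate 3.

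Ino80d, a large subunit of the N-terminal module, was among the steadiest members. It was at 27.6, 18.0, 37.4 and 31.5 CPM in knockdown-labelled replicates 1 to 4, against 36.4, 23.2, 43.8 and 30.9 CPM in control replicates 1 to 4. The groups overlapped (log2 fold change −0.23, SE 0.33). The long non-coding RNA Ino80dos starts on the other strand and shares 431 exonic bases with Ino80d. It was at 16.5, 17.4, 16.2 and 13.0 CPM in knockdown-labelled replicates 1 to 4, against 21.0, 20.5, 42.1 and 25.9 CPM in control replicates 1 to 4. The groups of Ino80dos did not overlap, which held for 2.98% of all genes tested. Its log2 fold change was −0.80 (SE 0.36), and its edgeR p was not under 0.05, adjusted or unadjusted. Ino80d carried a fractional count in 7 of 8 libraries, and in 2 of these 7 the sum with Ino80dos was a whole number.

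Mcrs1, the microspherule protein of the N-terminal module, was the most uneven member in the knockdown-labelled group. It was at 0.198, 10.7, 3.47 and 1.47 CPM in knockdown-labelled replicates 1 to 4, against 5.72, 1.29, 5.51 and 5.17 CPM in control replicates 1 to 4. Knockdown-labelled replicate 1 rests on 1.05 counts and replicate 2 lay above all controls. The log2 fold change was −0.16 (SE 1.16), with −1.35 when knockdown-labelled replicate 2 was left out and 0.23 when replicate 1 was. Control replicate 2 lay below the other controls, and without it the value was −0.47.

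Part of the Mcrs1 count is an apportionment. The non-coding 1700120C14Rik lies on the other strand and shares 174 exonic bases with Mcrs1. In all 6 libraries where Mcrs1 had a fractional count, its sum with 1700120C14Rik was a whole number within 0.011, such as 1.05 and 23.95 counts in knockdown-labelled replicate 1. RSEM gives such values when it divides reads that match more than 1 gene. Mcrs1 took 4.20%, 60.6%, 7.17% and 58.0% of the pair's counts in knockdown-labelled replicates 1 to 4, against 36.8%, 22.3%, 33.2% and 50.5% in control replicates 1 to 4. The pair together lay at 4.96, 17.7, 48.4 and 2.54 CPM in knockdown-labelled replicates 1 to 4, against 15.5, 5.80, 16.6 and 10.2 CPM in control replicates 1 to 4, with overlapping groups.

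**Figure D2:**
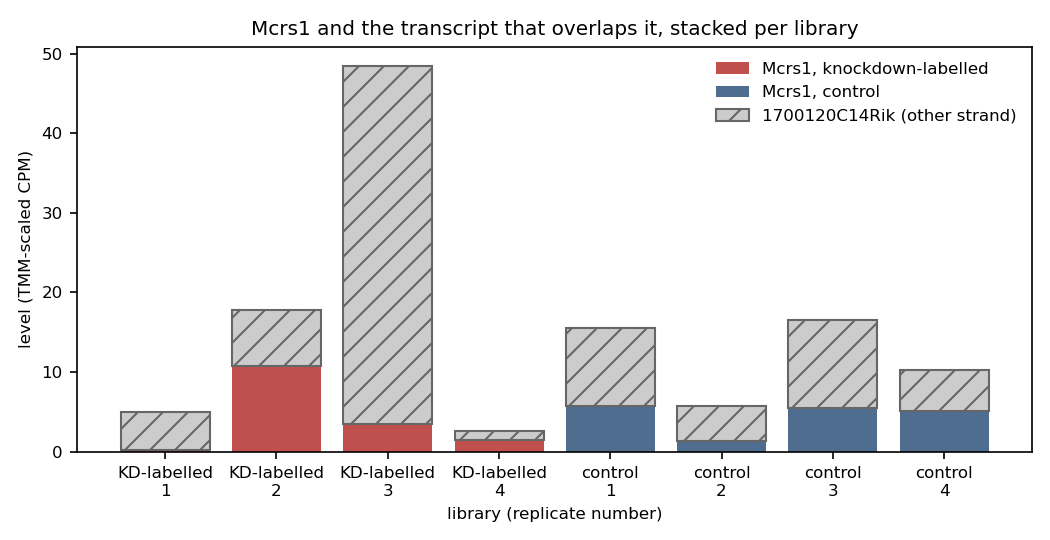
TMM-scaled CPM of Mcrs1 (solid) with 1700120C14Rik (hatched) stacked on it, 1 bar per library, knockdown-labelled on the left and control on the right. The pair runs from 2.54 to 48.4 CPM in the knockdown-labelled libraries and from 5.80 to 16.6 CPM in the controls, and the Mcrs1 part of it from 4.20% to 60.6% in the knockdown-labelled libraries and from 22.3% to 50.5% in the controls.

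Ruvbl1 and Ruvbl2 build the ATPase ring, and they are shared with other remodellers and chaperone assemblies. Ruvbl1 was the most abundant and steadiest member, at 80.7, 56.7, 70.7 and 88.9 CPM in knockdown-labelled replicates 1 to 4, against 71.9, 54.6, 87.8 and 75.9 CPM in control replicates 1 to 4. Its groups overlapped and its fitted fold was 1.02, with a 95% interval from 0.711 to 1.47, the narrowest of the 10 members. Ruvbl2 was at 3.17, 0.243, 6.47 and 7.08 CPM in knockdown-labelled replicates 1 to 4, against 5.84, 12.4, 7.75 and 10.5 CPM in control replicates 1 to 4. Knockdown-labelled replicates 1 and 2 lay below all controls and replicates 3 and 4 among them, and replicate 2 rests on 2 counts. The Ruvbl2 log2 fold change was −1.10 (SE 0.91), the lowest of the 10, and it was −0.36 with replicate 4 as the only knockdown-labelled library.

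Although the ring holds both proteins, their RNA was unequal in every library. Per 1000 exonic bases Ruvbl1 exceeded Ruvbl2 by 38.9, 357, 16.7 and 19.2 times in knockdown-labelled replicates 1 to 4, and by 18.8, 6.71, 17.3 and 11.0 times in control replicates 1 to 4. The 357 rests on the 2 counts of Ruvbl2 in knockdown-labelled replicate 2. Gys1 and Lhb overlap Ruvbl2 on the other strand, with 310 and 138 shared exonic bases, and no annotated gene overlaps Ruvbl1.

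**Figure D3:**
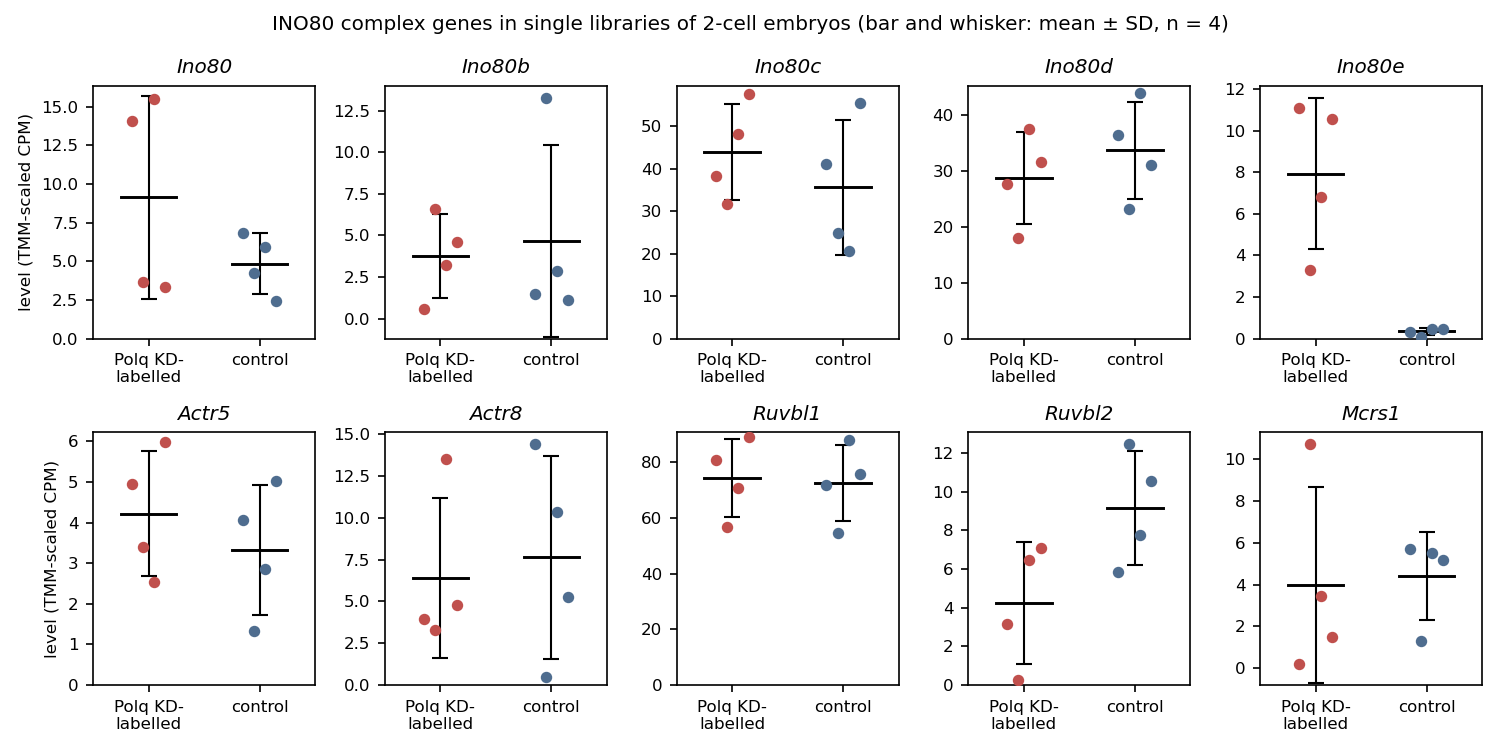
TMM-scaled CPM of each member in each library (points), knockdown-labelled on the left and control on the right of each panel, with mean and SD of 4. Ino80e is the panel in which the groups do not overlap, and Ruvbl1 (54.6 to 88.9 CPM over the 8 libraries) the one with the smallest spread for its level.

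Scaled by exon length, the members fell by their group means into 2 abundant genes and a low group. Ruvbl1 led with 39.1 ± 7.29 CPM per 1000 exonic bases in the knockdown-labelled libraries and 38.2 ± 7.22 in the controls (SD, n = 4). Ino80c followed with 15.6 ± 4.02 in the knockdown-labelled libraries and 12.6 ± 5.66 in the controls. In all 8 libraries Ruvbl1 lay above Ino80c and Ino80c above Ino80b and Ruvbl2. Ino80b came close in control replicate 2, at 8.32 against 8.82 for Ino80c, which was at 7.30 in control replicate 3. Together Ruvbl1 and Ino80c made 71.1% to 87.2% of the summed length-scaled level of the 10 genes.

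Below them the order was not fixed. In the knockdown-labelled libraries the means descended from Ino80b (2.35) through Ino80d (1.62), Ruvbl2 (1.46), Ino80 (1.34), Mcrs1 (1.13), Ino80e (1.04) and Actr5 (1.01) to Actr8 (0.708) CPM per 1000 bases. Each of these overlapped the next in range. In the controls they descended from Ruvbl2 (3.15) through Ino80b (2.93), Ino80d (1.90), Mcrs1 (1.26), Actr8 (0.846), Actr5 (0.793) and Ino80 (0.712) to Ino80e (0.0443). Of these neighbours in the controls, only Ino80 and Ino80e did not overlap, by 16.1 times in their means. The exon length matters for Ino80e, whose 15 annotated transcripts cover 7644 exonic bases while the longest protein-coding one has 1973: by that length, chosen after seeing the data, it ranked 3 of 10 in the knockdown-labelled libraries (4.02) and 10 of 10 in the controls (0.172).

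**Figure D4:**
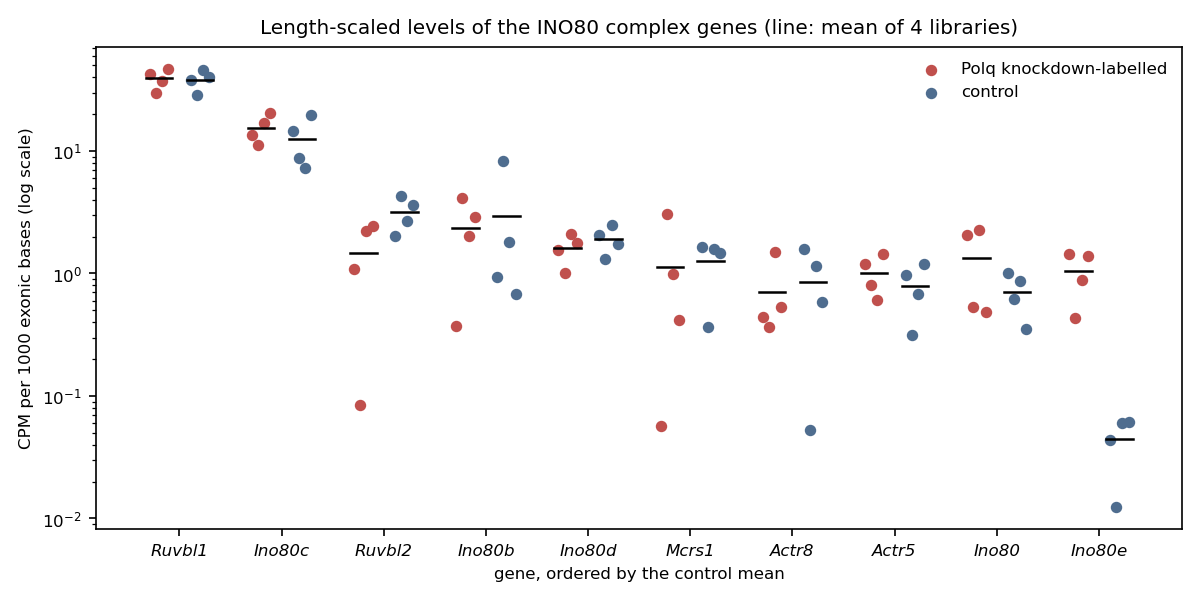
CPM per 1000 exonic bases on a log axis for each member, ordered by the control mean, with knockdown-labelled libraries to the left of controls (points) and lines at the means. Ruvbl1 (39.1 and 38.2) and Ino80c (15.6 and 12.6) have the highest means in both groups, and Ino80e has the lowest mean in the controls (0.0443).

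Across the whole table no gene passed between the groups. The edgeR quasi-likelihood test called 0 of 13146 genes at an adjusted p under 0.05, a background of 0%, and 0 of the 10 members. At an unadjusted p under 0.05 it gave 369 genes, a background of 2.81%, and 1 member, Ino80e. DESeq2 called 20 genes, with Ino80e as the member among them, and limma-voom called 0, with 558 and 817 genes at an unadjusted p under 0.05. Groups of 4 and 4 libraries did not overlap in 2.98% of the 13146 genes, or 1.44% with the knockdown-labelled group higher, and in 1 of the 10 members, with that group higher. Since Ino80e prompted the choice, nothing is read from these counts.

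All 10 members passed the filter on low counts, and 5 had positive and 5 negative log2 fold changes. Their median was −0.06, against −0.05 over all 13146 genes, and −0.16 for the 9 members other than Ino80e. The 95% intervals of those 9 all included no difference. They were wide for most: the median SE was 0.91 over the members and 0.85 over all genes. In 4 members at least 1 library held under 10 counts. The median coefficient of variation between libraries was 56.4% in the knockdown-labelled group and 46.2% in the controls for the members, against 56.8% and 57.0% for all genes tested.

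**Figure D5:**
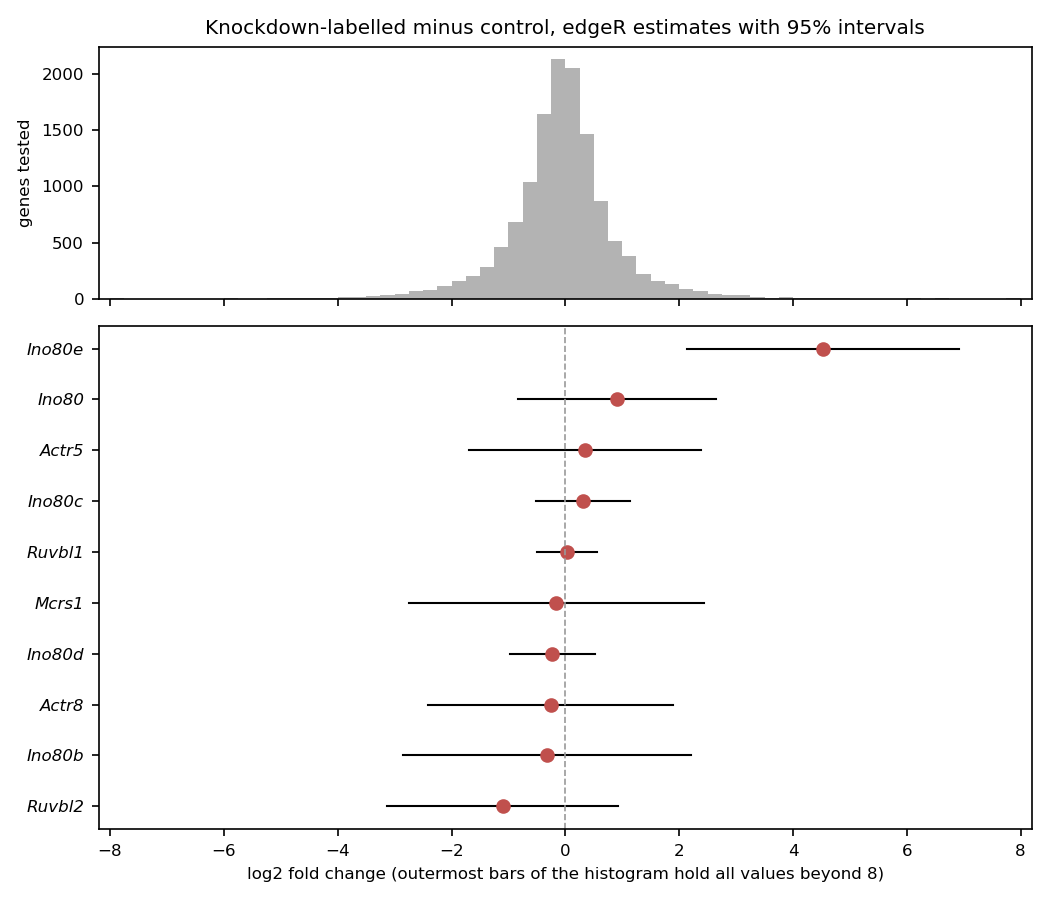
Top, the number of genes tested by log2 fold change (knockdown-labelled minus control) in bins, the outermost of which hold all values beyond 8. Bottom, the estimate and 95% interval of each member: Ino80e is at 4.53, and the intervals of the other 9 cross 0, from Ruvbl2 at −1.10 to Ino80 at 0.91.

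Of the other subunits and partners of the complex, all 6 were tested, 3 with positive and 3 with negative log2 fold changes (median 0.05). Over all 13146 genes 6128 were positive and 7018 negative (median −0.05). The edgeR test called 0 of the 6, with 1 (Actb) at an unadjusted p under 0.05, against 2.81% of all genes. The genes named from this list and the 2 below have the smallest p or the highest level of their list, so their differences are no finding. Uchl5, a deubiquitinase bound to the complex, was at 27.96, 23.0, 25.7 and 26.0 CPM in knockdown-labelled replicates 1 to 4, against 5.81, 12.4, 22.3 and 19.2 CPM in control replicates 1 to 4. All 4 knockdown-labelled libraries lay above the controls, by little in the case of control replicate 3 (log2 fold change 0.78, SE 0.44). Actb, the actin shared by several remodellers and the cytoskeleton, was at 53.9 ± 14.5 CPM in the knockdown-labelled libraries and 82.1 ± 14.4 CPM in the controls (−0.61, SE 0.26). Yy1, a DNA-binding partner, was at 121 ± 19.5 CPM in the knockdown-labelled libraries and 95.9 ± 17.5 CPM in the controls (0.34, SE 0.21).

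The SRCAP and TIP60 complexes, which share Ruvbl1 and Ruvbl2 and handle the histone variant H2A.Z, gave 17 tested genes of 18, with 11 positive and 6 negative log2 fold changes (median 0.10). The edgeR test called 0, also at an unadjusted p under 0.05. H2az1, one of the genes for H2A.Z, was at 1557 ± 329 CPM in the knockdown-labelled libraries and 1340 ± 119 CPM in the controls. Ep400, the TIP60 motor, was at 23.2 ± 9.35 CPM in the knockdown-labelled libraries and 34.7 ± 19.8 CPM in the controls. Of 14 genes of R2TP and other partners of the ring, which help assemble large complexes, 11 had a log2 fold change above 0. The other 3 lay below, the median was 0.15, and edgeR again called 0 at either threshold. Over all genes 6128 were positive and 7018 negative, and whether either list departs from that was not tested. Pfdn2, a prefoldin subunit, was at 160 ± 29.8 CPM in the knockdown-labelled libraries and 121 ± 10.8 CPM in the controls (0.40, SE 0.19). Znhit6, a factor of box C/D snoRNP assembly, was at 311 ± 94.3 CPM in the knockdown-labelled libraries and 226 ± 67.2 CPM in the controls, and Znhit3, the gene of this list with the highest CPM, at 1761 ± 408 CPM in the knockdown-labelled libraries and 1593 ± 448 CPM in the controls.

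In GRCm38 the other members lie as follows, all protein-coding. Ino80b spans 83121765 to 83125431 on the minus strand of chromosome 6, and Ruvbl1 88465409 to 88497572 on the plus strand of the same chromosome. Ino80c spans 24104757 to 24121953 on the minus strand of chromosome 18, and Ino80d 62958418 to 63114667 on the minus strand of chromosome 1. Actr5 spans 158624888 to 158639211 on the plus strand of chromosome 2, and Actr8 29978337 to 30006354 on the plus strand of chromosome 14. Ruvbl2 spans 45421760 to 45438096 on the minus strand of chromosome 7, and Mcrs1 99242817 to 99251961 on the minus strand of chromosome 15. Exonic bases were shared with a gene on the other strand in 6 members (Ino80b, Ino80d, Ino80e, Actr8, Ruvbl2 and Mcrs1), and 3 (Ino80, Ino80c and Ruvbl1) overlapped no annotated gene. Of the overlapping genes not described above, Gm44287, Gm44468, Gm24942, Rps13-ps7, Mir3474 and Mir6947 had 0 counts in all 8 libraries. Il17rb, which overlaps Actr8, had 34 and 6 counts in knockdown-labelled replicates 2 and 3 and 0 in the other libraries. Lhb was above 0 in knockdown-labelled replicates 1 and 4 (4.96 and 1.79 CPM) and in control replicate 2 (3.69 CPM). Gys1 was at 51.6, 6.93, 2.31 and 5.55 CPM in knockdown-labelled replicates 1 to 4, against 18.2, 3.53, 17.8 and 2.40 CPM in control replicates 1 to 4, with overlapping groups. Kcnh3 ran from 0.364 to 2.88 CPM in the knockdown-labelled libraries and from 0 to 1.35 CPM in the controls. Rps27-ps1, within Ino80d, had at most 10 counts in a library.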

How the data were processed

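RNA from pooled embryos was extracted with TRIzol and made into libraries with the NEBNext Ultra kit, per the labels' protocols. The authors deposited expected counts per gene, not normalised. The submitters' processing notes name Trim Galore 0.6.10, STAR 2.7.3a, RSEM 1.2.28 and the build GRCm38 (mm10). Annotation release, strand setting and treatment of duplicates were not given in the sources used here. Columns were matched to samples through each sample's description. Gene positions and exon lengths came from GENCODE M21 (GRCm38), and promoters from RefSeq (GRCm38.p6).

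Counts were rounded, which altered 4.22% of values, filtered with filterByExpr (minimum count 10, minimum total 15), TMM-scaled and compared with edgeR 4.0.16 in R 4.3.3 (quasi-likelihood, group only, all 8 libraries, Benjamini-Hochberg adjustment over 13146 genes). The procedure was tested on simulated data, but how often it finds a true difference at the spread of these libraries is not given here. That spread was wide, with a common biological coefficient of variation of 0.987 (the edgeR estimate over all genes tested). The lack of calls is therefore not read as a lack of differences. Intervals cover the spread between libraries, since the library is the unit of the fit. No molecular identifiers are mentioned.

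Alternatives used DESeq2 1.42.0, which left 144 genes without an adjusted p, limma 3.58.1 with voom, other scalings and filters, thinning to 4726160 counts, unrounded counts, a block for the replicate number, and leaving out each library. The members and lists were chosen with earlier results of these data known. The genes named are the members, the genes that overlap them, Polq, the 3 profiles most like Ino80e, and from each list the 2 genes with the smallest p and the most abundant one. H2afz and H2afv were matched as H2az1 and H2az2.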

Additional observations from a re-analysis of the deposited data

Results flagged for a closer look

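In each of 20 groups of 4 values (10 members in each group) the library at either end was compared with the other 3. In 3 of the 20 groups its gap to the nearest was over 0.829 of the whole range. For normally distributed values chance gives about 1 in 20 groups. The CPM of low counts need not be so distributed, so no excess is read from the 3. Actr8 was at 13.5 CPM in knockdown-labelled replicate 3, with 3.28 to 4.76 CPM in the other 3 of that group. Ino80b was at 13.3 CPM in control replicate 2, with 1.09 to 2.86 CPM in the other controls. Mcrs1 was at 1.29 CPM in control replicate 2, with 5.17 to 5.72 CPM in the other controls. Without that library the log2 fold change was −0.93 for Actr8, 1.05 for Ino80b and −0.47 for Mcrs1. The cause was not tested.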

How the results depend on the processing

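DESeq2 called 20 genes and 1 member, where every other setting that kept more than 1 library in each group called 0 of both. The filter of at least 5 CPM in 4 libraries left out Ino80e, Ino80b and Actr5, so Ino80e could not be called there. With the replicate number as a replicate block, 0 genes and 0 members were called and the members' median log2 fold change was 0.135; deviations of same-numbered libraries correlated at −0.0751, 0.00485, −0.00808 and 0.00846, and only replicate 2 correlated best with its own number, so the numbers were not taken to pair the libraries. The median was between −0.13 (at least 5 CPM in 4 libraries, 7 members tested) and 0.14 in all settings, and limma-voom gave 0.14. Of 177 member values under other settings, 176 moved by less than the SD between replicates. The exception was Ino80, at −0.54 with knockdown-labelled replicate 4 alone. That SD is between single libraries and is wide for uneven members, so it is a loose limit. Ino80b ran from −0.71 to 1.05 and Mcrs1 from −1.58 to 0.23 without passing it. Under some setting 5 members (Ino80, Ino80b, Actr8, Ruvbl1 and Mcrs1) changed sign, and the other 5 did not.

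By the longest transcript, 5 of 10 members kept their rank of level in the knockdown-labelled libraries and all 10 kept it in the controls. By the longest protein-coding transcript, a setting chosen after seeing the data like the one with replicate 4 alone, 4 kept it in the knockdown-labelled libraries and 6 in the controls. With 1 library of the same group left out, 4 to 7 kept it in the knockdown-labelled libraries and 5 to 7 in the controls; leaving out a library of the other group cannot move the ranks, so all 10 kept theirs by construction. A few values rest on hardly any counts and are imprecise: knockdown-labelled replicate 1 held 1.05 counts of Mcrs1 and 3 of Ino80b, and replicate 2 held 2 of Ruvbl2. Thinned to 1 total, they were 1, 3 and 2 counts, against 6 to 43, 20 to 28 and 16 to 33 in the other knockdown-labelled libraries.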
